A study of Mus musculus with 8 samples.

Results

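RAW264.7 is a macrophage-like cell line of the mouse, and the comparison concerned 4 of its 8 RNA-seq libraries. It set the 2 libraries labelled LPS_IFNg against the 2 labelled mock, each with the library of its own replicate number, and asked for small shifts that recurred in both pairs and for the largest change that the counts of each gene still allowed. The cells labelled LPS_IFNg had received lipopolysaccharide (LPS) at 10 ng/ml and interferon-gamma (IFN-γ) at 20 ng/ml for 24 h, per the labels. Those labelled mock had received DMSO, the solvent, with no time given in the sources used here. The other 4 libraries, labelled LPS_IFNg_TubB and TubB with the compound Tubuloside B at a dose not given there, 2 in each group, served for scale and for one repeat of the comparison. Per the labels, the cells labelled LPS_IFNg_TubB had also received LPS at 10 ng/ml and IFN-γ at 20 ng/ml for 24 h. For those labelled TubB no LPS, IFN-γ or time is given. The labels do not tell whether the replicates are separate cultures. P-values and intervals therefore refer to the spread among these libraries, which may be technical.

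LPS is a component of the outer membrane of Gram-negative bacteria and is sensed by Toll-like receptor 4 with its partner CD14, which leads through the adaptor MyD88 to the transcription factor NF-κB. IFN-γ acts through its receptor and the Janus kinases on promoters that hold GAS elements, and induces IRF1, guanylate-binding proteins and other immunity-related GTPases. Together the pair is a standard way of driving macrophages, RAW264.7 cells included, to make nitric oxide through inducible nitric oxide synthase, with cytokines, chemokines and prostaglandin synthesis.

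The promoters of 3 genes that this pair of stimuli is known to induce show the kinds of element concerned. None of these genes, described below, was called in LPS_IFNg against mock. Icam1 and Nfkbia were tested and, like all other genes tested, did not pass. Gbp2 had too few counts to test. Each run is the 250 bases before the start of the gene, from RefSeq on GRCm38.p6: Gbp2 at chr3:142620413-142620662 (plus strand), Icam1 at chr9:21015690-21015939 (plus strand) and Nfkbia at chr12:55492648-55492897 (minus strand). Capitals mark a match, on either strand, to the GAS letters TTCNNNGAA (Icam1), to the core of the interferon-stimulated response element, GAAA, any 2 bases and GAAA (Gbp2), or to the NF-κB consensus (Nfkbia).
Gbp2: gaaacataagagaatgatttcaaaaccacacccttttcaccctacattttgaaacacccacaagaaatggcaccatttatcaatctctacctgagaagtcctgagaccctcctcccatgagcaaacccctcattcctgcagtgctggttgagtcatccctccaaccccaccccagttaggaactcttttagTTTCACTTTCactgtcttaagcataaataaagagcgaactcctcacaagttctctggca
Icam1: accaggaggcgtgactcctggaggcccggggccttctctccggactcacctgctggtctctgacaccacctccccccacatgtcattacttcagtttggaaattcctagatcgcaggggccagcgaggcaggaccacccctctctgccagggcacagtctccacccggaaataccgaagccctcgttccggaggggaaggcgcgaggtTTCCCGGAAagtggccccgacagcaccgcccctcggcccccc
Nfkbia: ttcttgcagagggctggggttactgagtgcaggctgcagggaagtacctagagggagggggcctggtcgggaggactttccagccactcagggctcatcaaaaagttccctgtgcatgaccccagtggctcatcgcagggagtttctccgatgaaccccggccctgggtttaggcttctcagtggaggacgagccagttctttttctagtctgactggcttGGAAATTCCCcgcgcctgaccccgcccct
Of 32841 RefSeq promoter windows of this length, 7.02% held the GAS letters, 2.98% the response element core and 7.25% the NF-κB consensus. A match describes letters and is not evidence of binding. No matches of one kind overlapped those of another in these 3 windows.

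The libraries were of similar depth, with 5617372 and 5519706 counts in LPS_IFNg replicates 1 and 2 and 6648055 and 6435249 in mock replicates 1 and 2. Markers of macrophages were present in both groups. The summed level of 11 markers, in counts per 1000000 counts of the library (CPM), was 8790 and 8950 in the libraries labelled LPS_IFNg and 8780 and 8760 in those labelled mock, and 1 of the 11, Mertk, was at 0 throughout. Of 25 markers of other cell types, 14 were at 0 in all 4 libraries, among them the T cell genes Cd3e, Cd4 and Cd8a, the B cell gene Ms4a1, and the epithelial genes Epcam, Krt8 and Krt18. The sum of the 25 was 53.6 and 54.2 CPM in LPS_IFNg against 58.1 and 52.7 CPM in mock, most of it from the integrin gene Itgax. In bulk RNA, fewer cells of a type and less RNA per cell cannot be told apart.

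The markers of the stimulus went against the label LPS_IFNg. Nos2 encodes inducible nitric oxide synthase and lies on chromosome 11 from 78920787 to 78960226, in GRCm38.p6 as all positions here. It had 215 and 177 CPM in the libraries labelled LPS_IFNg, against 190 and 167 CPM in those labelled mock. It reached 6790 and 5780 CPM in the libraries labelled LPS_IFNg_TubB and 6320 and 5450 CPM in those labelled TubB. The mean of the libraries labelled LPS_IFNg was thus 3.33% of the mean of those labelled TubB, and that of mock 3.03%. All 4 libraries compared here lay at the low end for this gene, and libraries are therefore named by their deposited labels throughout. Every direction given below is a difference between libraries so labelled. Whether the labels LPS_IFNg and TubB stand on the libraries of the cells so treated cannot be told from the files, and what each difference means as a treatment rests on that.

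**Figure D1:**
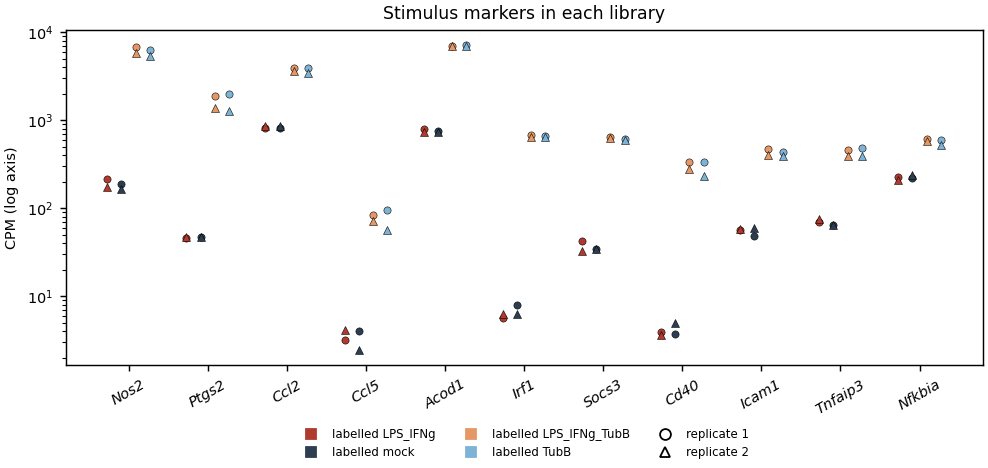
CPM on a log axis of the 11 stimulus markers that could be tested, in each of the 8 libraries, with colours for the labelled groups, circles for replicate 1 and triangles for replicate 2. The libraries labelled LPS_IFNg and mock lie together at the low end of every gene, and those labelled LPS_IFNg_TubB and TubB together at the high end.

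No gene passed the test of LPS_IFNg against mock. Of 10577 genes with enough counts to test, edgeR's quasi-likelihood test with the replicate number as a block called 0 higher (0%) and 0 lower (0%) at a Benjamini-Hochberg adjusted p under 0.05, and the smallest adjusted p was 0.0636. At an unadjusted p under 0.05 there were 623 genes (5.89% of those tested), 311 higher (2.94%) and 312 lower (2.95%). Without the replicate block edgeR again called 0, with 343 at an unadjusted p under 0.05. DESeq2 called 0 with 9, limma on the authors' rlog values called 0 with 644, and limma-voom called 1, lower, with 608. The same fit did separate the replicate numbers of these 4 libraries, with 98 genes (0.927%) higher and 73 (0.69%) lower in replicate 2 than in replicate 1.

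The genes nearest to a call were shifted by small amounts. They were picked after their values were seen, by p. Plau, the urokinase plasminogen activator (chromosome 14, 20836662 to 20843388), is the gene that limma-voom called, at an adjusted p of 0.00614. It had 1260 and 1460 CPM in LPS_IFNg against 1360 and 1630 CPM in mock, a log2 fold change of -0.14 ± 0.03 (SE, edgeR adjusted p = 0.0636). Each library labelled LPS_IFNg was below the mock library of its number, but the groups overlapped, since LPS_IFNg replicate 2 was above mock replicate 1. Plxna1, a semaphorin receptor, had 393 and 392 CPM against 349 and 336 CPM in mock (0.20 ± 0.05, adjusted p = 0.0636). Ctcf, the insulator-binding protein, had 113 and 108 CPM against 88 and 90.4 CPM (0.31 ± 0.08, adjusted p = 0.118). The groups did not overlap for these 2 genes. Ank, a membrane protein needed for the export of pyrophosphate, had 212 and 229 CPM against 233 and 283 CPM (-0.22 ± 0.05, adjusted p = 0.0636), again without overlap. Over all genes tested, 1598 (15.1%) were higher and 1687 (15.9%) lower in LPS_IFNg without overlap of the groups.

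Some genes near the top of that order differed in only 1 pair. Malat1, a nuclear long noncoding RNA, had 699 and 478 CPM in LPS_IFNg against 686 and 606 CPM in mock, with log2 differences of 0.02 in the pair of replicates 1 and -0.34 in that of replicates 2. AY036118, a transcript annotated on chromosome 17 from 39848112 to 39898385, had 278 and 249 CPM against 261 and 191 CPM, with differences of 0.08 and 0.39. For both genes 1 pair carried nearly all of the difference. Malat1 and AY036118 also differed between the libraries labelled LPS_IFNg_TubB and TubB, with the signs turned round: there Malat1 was higher by 0.25 and AY036118 lower by 0.39 on the log2 scale, both called by edgeR. In those pairs Malat1 was at 0.49 and 0.02, again mainly in 1 pair, and AY036118 at -0.44 and -0.35.

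The fitted intervals left little room for change between these libraries in most genes. For each gene the 95% interval of the log2 fold change was taken from the paired fit, and its end farther from 0 was called the bound, the largest change in either direction that the interval still held. The median bound over all genes tested was 0.34 on the log2 scale, or 1.27-fold. The whole interval lay within 2-fold in 9393 genes (88.8%) and within 1.5-fold in 7976 (75.4%). By DESeq2 these shares were 77.7% and 53.2%. The fold change itself lay between -0.69 and 0.65 in the middle 98% of genes. With 1 residual degree of freedom per gene, the intervals rest mainly on a spread shared across genes. The difference of a single pair can therefore lie outside the bound. Malat1, for example, was at -0.34 in the pair of replicates 2, with a bound of 0.23.

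The bound followed the level of the gene. In the 1788 genes with a mean of 7 log2 CPM and over, the median bound was 1.11-fold and the largest 1.28-fold. In the 4155 genes of 5 to 7 log2 CPM the median was 1.2-fold and the largest 1.65-fold. Among 2973 genes of 3 to 5 log2 CPM, 98% were bounded within 2-fold and 69% within 1.5-fold. Under 3 log2 CPM, 32.2% of 1661 genes were bounded within 2-fold and 0% within 1.5-fold, and the widest bound, 18.2-fold, was that of Rph3a. In most genes of that class the interval thus held a change of 2-fold in at least 1 direction.

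**Figure D2:**
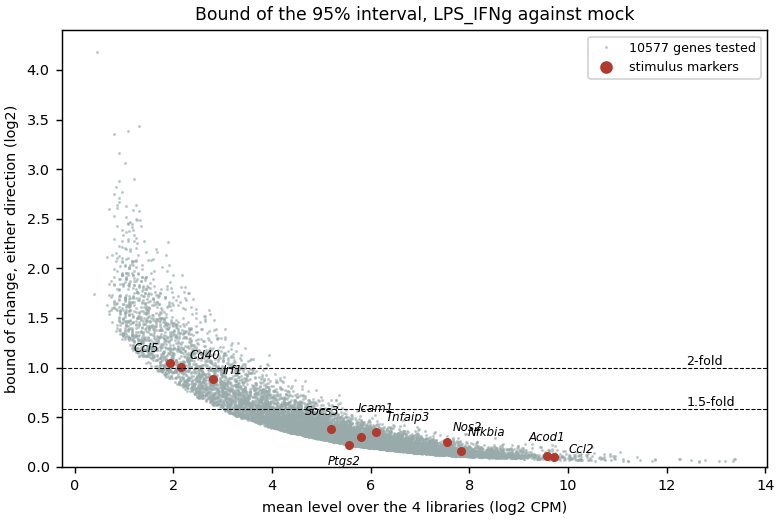
Bound of change (the end of the 95% interval of the LPS_IFNg against mock log2 fold change that is farther from 0) against the mean level of each of 10577 genes in log2 CPM, with the tested stimulus markers as red points and dashed lines at 1.5-fold and 2-fold. The bound narrows with level, and 9 of the 11 markers lie under the 2-fold line, with Ccl5 and Cd40 at or just above it.

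Inflammatory enzymes were bounded closely. For Nos2 the log2 fold change was 0.13, with a 95% interval of 0.02 to 0.25, an unadjusted p of 0.0216 and an adjusted p of 0.764, and LPS_IFNg was the higher library in both pairs (0.18 and 0.09). The groups overlapped, since LPS_IFNg replicate 2 was below mock replicate 1. Ptgs2 (chromosome 1, 150100031 to 150108234), the inducible prostaglandin synthase, had 46.6 and 47.8 CPM in LPS_IFNg against 47.4 and 46.8 CPM in mock, and its interval ran from -0.22 to 0.22. Acod1, which makes itaconate, had 798 and 737 CPM against 752 and 742 CPM, with an interval of -0.04 to 0.11. The library values of both genes were interleaved between the groups.

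Of the chemokine and adhesion genes, Ccl2 and Icam1 were bounded more closely than Ccl5. Ccl2, the monocyte-attracting chemokine, had 813 and 860 CPM in LPS_IFNg against 827 and 875 CPM in mock, and the interval, -0.10 to 0.05, held no change beyond that size. Ccl5, a chemokine for T cells and monocytes, was low, with 18 and 23 counts against 27 and 16 counts, and its interval of -0.70 to 1.05 left up to 2.08-fold. The log2 differences of Ccl5 had opposite signs, -0.32 in the pair of replicates 1 and 0.68 in that of replicates 2. Icam1, the leukocyte adhesion molecule, had 56.6 and 58.9 CPM against 48.7 and 59.4 CPM (interval -0.10 to 0.30). In all 3 genes the groups overlapped.

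Of the feedback genes of NF-κB and cytokine signalling, Nfkbia, the inhibitor IκBα, had 230 and 213 CPM in LPS_IFNg against 224 and 237 CPM in mock (interval -0.16 to 0.05). Tnfaip3, the ubiquitin-editing inhibitor A20, had 70.5 and 75.7 CPM against 65.3 and 64.6 CPM (log2 fold change 0.17, interval -0.01 to 0.35, adjusted p = 0.857). The groups did not overlap for Tnfaip3, as was the case for 1598 genes in the same direction (15.1% of those tested). Socs3, an inhibitor of cytokine receptor signalling, had 42.5 and 33.2 CPM against 34.4 and 34.8 CPM (interval -0.13 to 0.38).

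Genes that IFN-γ induces were near the floor in both groups. Irf1, the transcription factor (chromosome 11, 53769854 to 53778374), had 32 and 35 counts in LPS_IFNg against 53 and 41 counts in mock, and 3294 and 4184 counts in LPS_IFNg_TubB against 3319 and 5382 in TubB. Its interval between LPS_IFNg and mock was -0.88 to 0.37, so that the highest rise it held was 0.37 on the log2 scale. Cd40, the costimulatory receptor, had 22 and 20 counts against 25 and 32 in mock (interval -1.01 to 0.60). In LPS_IFNg, Irf1 was at 0.925% and Cd40 at 1.34% of the level in the libraries labelled TubB.

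Of 24 IFN-γ-inducible GTPases and regulators, 18 had too few counts to test and 9 had 0 counts in all 4 libraries. Gbp2, a guanylate-binding protein that attacks the vacuoles of intracellular pathogens, had 5 and 2 counts in LPS_IFNg and 5 and 2 counts in mock, against 6746 and 10605 counts in TubB. Iigp1, an immunity-related GTPase, had 0 and 0 counts in LPS_IFNg and 1 and 0 counts in mock, against 3752 and 4724 counts in TubB. The 18 genes together had 18 and 18 counts in LPS_IFNg and 22 and 7 counts in mock, against 27360 and 37980 counts in TubB. These sums overlapped between LPS_IFNg and mock. The summed level of all 24 was 148 and 132 CPM in LPS_IFNg against 134 and 129 CPM in mock. Of the 24 genes, 5 have a numbered copy in the annotation and may lose reads to it. Igtp, Irgm2, Tgtp2 and Ifi47 are those among the 18 not tested.

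Of the 6 members tested, 0 were called. Irf8, a myeloid transcription factor, had 43.1 and 31.5 CPM in LPS_IFNg against 32.6 and 30.6 CPM in mock (interval -0.03 to 0.50). The highest Irf8 value was that of LPS_IFNg replicate 1. Gbp7 was too low for a close bound, at 3.29-fold.

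Several secreted cytokines of the inflammatory response had few or no counts. Il6, the interleukin-6 gene (chromosome 5, 30013114 to 30019975), had 0 and 0 counts in LPS_IFNg and 1 and 0 counts in mock. A count of 0 allows up to 3 counts, which is 0.534 and 0.544 CPM in the 2 libraries labelled LPS_IFNg, against 61.0 and 36.5 CPM measured in those labelled TubB. Il1b, interleukin-1β, had 4 and 1 counts against 0 and 1 in mock, and Il1a 10 and 1 counts against 3 and 0. Cxcl10, the interferon-inducible chemokine, had 11 and 5 counts against 11 and 8, and Socs1 4 and 6 counts against 6 and 0. These counts are too few for a fold, and such floors cover counting error only. Tnf is listed at 0 in all 8 libraries, but it has a numbered copy in the annotation, and its 0 says nothing of the level of the gene.

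Of 20 cytokine genes, 9 were tested, of which 4 were higher and 2 lower in both pairs, beside 25.3% and 25.6% of all genes, with a median of 0.00. The 2 lower ones had the smallest p of the list. Csf1, the macrophage growth factor, had 9.44 and 8.88 CPM in LPS_IFNg against 13.5 and 12.1 CPM in mock (log2 fold change -0.49, interval -0.96 to -0.01, adjusted p = 0.808). Osm, oncostatin M, had 16.9 and 17.4 CPM against 20.9 and 22.7 CPM (-0.35, interval -0.70 to 0.01). The groups did not overlap for either gene, beside 15.9% of all genes lower without overlap. Il1rn, the interleukin-1 receptor antagonist, had 752 and 804 CPM against 731 and 805 CPM, with an interval of -0.05 to 0.09.

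The summed level of each stimulus list stood at nearly the same share of the libraries labelled TubB in both groups. For the type I interferon response this share was 11.6% in LPS_IFNg and 11.7% in mock, for cytokines 20.9% and 20.9%, and for chemokines 25.9% and 26.5%. For classical and alternative activation genes it was 7.42% in LPS_IFNg and 7.11% in mock, and for NF-κB targets 31.6% and 31.5%. In each of these 5 lists the shares of the 2 groups differed by less than 1 percentage point. Such sums follow their most abundant members. In LPS_IFNg, Il1rn made 752 and 804 of the 1330 and 1370 CPM of the cytokines. Acod1 made 798 and 737 of the 1160 and 1060 CPM of the activation genes.

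Shifts of the same sign in both pairs were about as many as shifts of opposite signs. A consistent shift was taken as a log2 CPM difference of the same sign and of at least 1.2-fold in each pair. There were 266 genes higher in LPS_IFNg (2.51%) and 286 lower (2.7%), 552 in all (5.22%), beside 519 (4.91%) that passed the same size in both pairs with opposite signs. Over all genes, 2675 (25.3%) were higher in both pairs and 2708 (25.6%) lower in both, and the sign was the same in 50.9%. Across the 10577 genes the differences of the 2 pairs had a Pearson r of -0.0226, and 0.0381 across the 5943 genes averaging 5 log2 CPM or more. Genes of 1 library are not independent replicates, and the pairs share no library.

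Few of these shifts were in well-measured genes. Under 3 log2 CPM there were 179 higher and 175 lower, with 364 of opposite signs. From 3 to 5 log2 CPM there were 77 higher and 103 lower, with 143 of opposite signs. From 5 to 7 log2 CPM there were 10 higher, 8 lower and 12 of opposite signs. At 7 log2 CPM and over there were 0 of any kind. After unnamed gene models were left out, 9 higher and 7 lower genes with at least 5 log2 CPM remained, and these are described next.

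**Figure D3:**
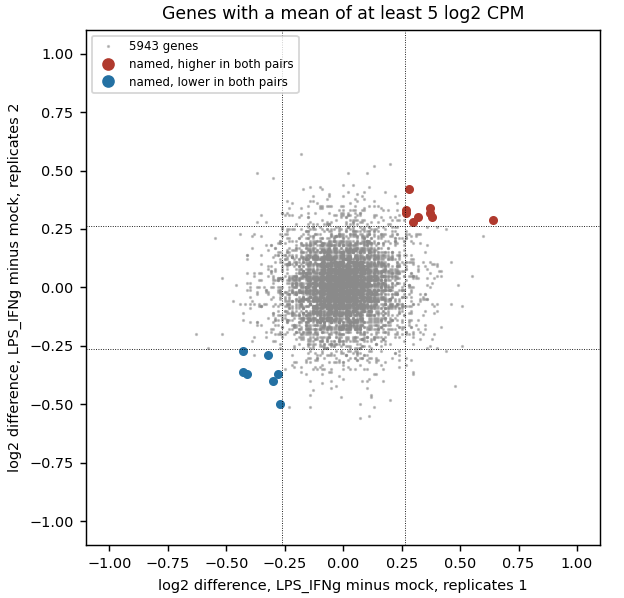
Log2 CPM difference, LPS_IFNg minus mock, in the pair of replicates 1 (horizontal) and of replicates 2 (vertical) for 5943 genes averaging 5 log2 CPM or more, with dotted lines at 1.2-fold and the 16 named genes in colour. The cloud is round, with an r of 0.0381, and the corners of equal and of opposite sign hold few genes.

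Mtmr14, a phosphatase of phosphoinositide lipids (chromosome 6, 113237635 to 113281392), had the smallest p of the 9 higher genes, with 54.3 and 41.7 CPM in LPS_IFNg against 34.6 and 34.0 CPM in mock. Its log2 fold change was 0.48 ± 0.12 (SE, edgeR adjusted p = 0.141), with an upper end of 1.65-fold, and LPS_IFNg replicate 1 was the highest library. Bach1, the heme-regulated repressor of Hmox1 (chromosome 16, 87698954 to 87733346), had 51.1 and 50.2 CPM against 42.0 and 37.6 CPM (0.35 ± 0.12, adjusted p = 0.577). The groups did not overlap for either gene, beside 15.1% of all genes higher without overlap.

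St3gal1, a sialyltransferase of O-linked glycans, had 58.9 and 62.7 CPM against 47.1 and 51.0 CPM. Dsn1, a subunit of the kinetochore complex MIS12, had 44.7 and 38.0 CPM against 34.4 and 30.1 CPM. Their log2 fold changes were 0.31 and 0.36. Prrg4, a membrane protein with a vitamin K-dependent Gla domain, and Mrps24, of the small subunit of the mitochondrial ribosome, stood at 0.35 and 0.30. Oser1, an oxidative stress-responsive gene, Sfxn3, a mitochondrial sideroflexin, and Cfap20, a ciliary protein, stood at 0.34, 0.30 and 0.29. The adjusted p of these 7 genes was between 0.577 and 0.797, and no lower end of their intervals passed 1.08-fold.

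Of the 7 lower genes, Prr14, which tethers heterochromatin to the nuclear lamina, had 35.6 and 34.2 CPM in LPS_IFNg against 48.0 and 44.1 CPM in mock (-0.40 ± 0.12, adjusted p = 0.443). Eif2d, a factor that delivers initiator tRNA to the ribosome, had 47.9 and 43.3 CPM against 58.8 and 57.2 CPM (-0.35 ± 0.11, adjusted p = 0.443). Fbxl5, the iron-sensing subunit of the ligase that degrades iron regulatory protein 2, had 36.3 and 37.0 CPM against 48.7 and 44.6 CPM (-0.35 ± 0.12, adjusted p = 0.655). In these 3 genes both libraries labelled LPS_IFNg were below both labelled mock, as in 1687 of all genes tested (15.9%). Fam193a stood at -0.39, Tmem237, of the ciliary transition zone, at -0.40, Camsap1, which binds microtubule minus ends, at -0.31, and Faim, an inhibitor of Fas-mediated death, at -0.32. The 16 genes were chosen by their differences, so these values are a description.

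**Figure D4:**
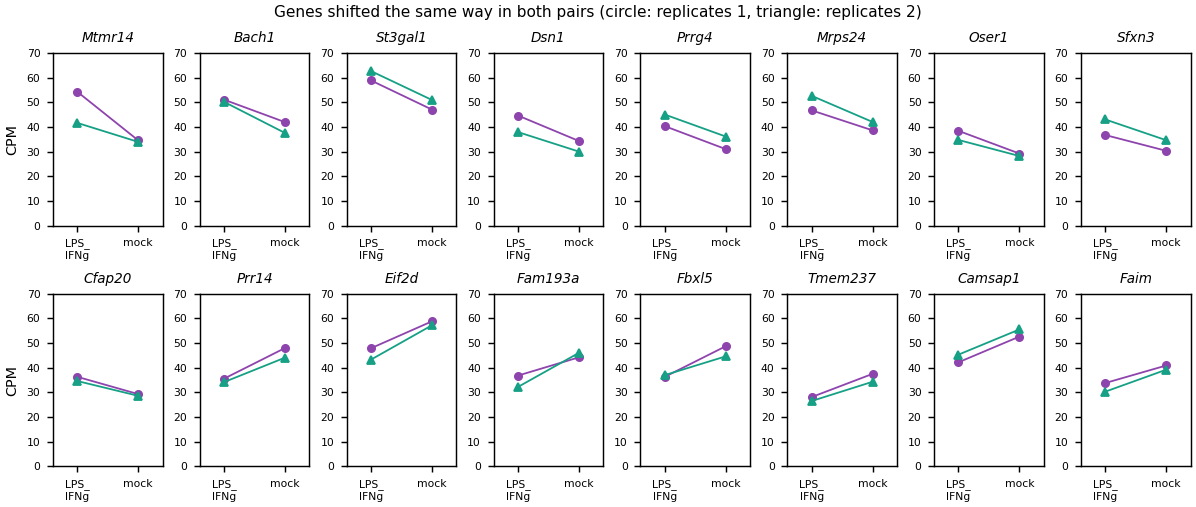
CPM in the LPS_IFNg library (left) and the mock library (right) of each pair for the 16 genes of at least 5 log2 CPM that were shifted by at least 1.2-fold the same way in both pairs, with circles for replicates 1 and triangles for replicates 2. The 9 genes from Mtmr14 to Cfap20 slope down to mock and the 7 from Prr14 to Faim slope up to it, all between 26.5 and 62.7 CPM.

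The shifts were looked for again in the libraries labelled LPS_IFNg_TubB and TubB, which share no library with the comparison. Of the 552 shifted genes, 457 could be tested there, and 216 had a log2 fold change of the same sign (47.3%, exact 95% interval 42.6% to 52%, which takes genes as independent). In both of those pairs 34 passed the same size with the same sign and 35 with the opposite sign. Across 10203 genes the log2 fold changes of the 2 comparisons had an r of 0.0154, and 0.00495 across the 5943 with at least 5 log2 CPM. Of the 16 named genes, 9 had the same sign. Camsap1 was lower there too, by 0.20 and 0.27 on the log2 scale in the 2 pairs, while Bach1 was at -0.01 and -0.15. There 516 genes (4.88%) were consistent shifts by the same definition, 267 higher (2.52%) and 249 lower (2.35%). In LPS_IFNg_TubB against TubB edgeR called 4 genes higher (0.0378%) and 1 lower (0.00945%). A test of the difference between the effects in all 8 libraries called 0 of 11081 genes (edgeR, smallest adjusted p 0.0539 for AY036118, 304 genes at an unadjusted p under 0.05).

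Medians of gene lists lay near 0. Of 39 lists, 36 had at least 5 members tested, and their medians lay between -0.05 and 0.08 on the log2 scale, beside a median of -0.0003 over all genes tested. The medians of single pairs lay between -0.08 and 0.17. Of 710 distinct members tested, 673 had an interval within 2-fold, beside 88.8% of all genes tested. Bounds followed the level of the genes, and such counts depend on that level. In 18 lists every member tested was within 2-fold, and every list had 0 called members.

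**Figure D5:**
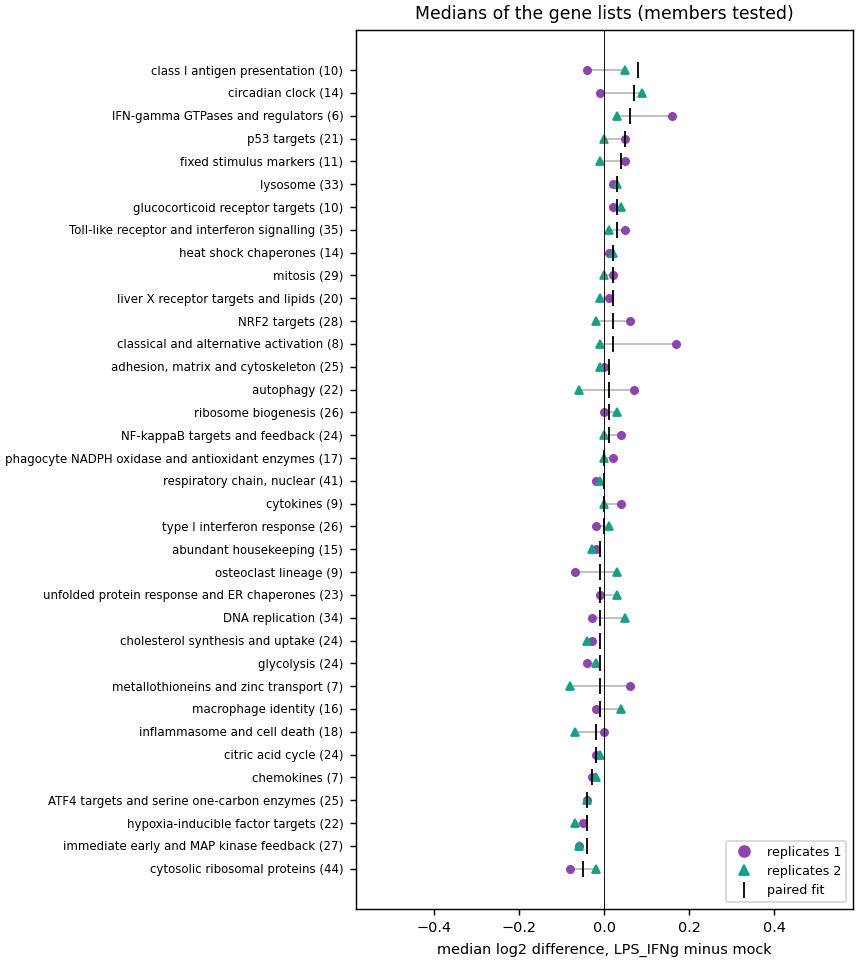
Median log2 difference, LPS_IFNg minus mock, of 36 gene lists in the pair of replicates 1 (circles), of replicates 2 (triangles) and in the paired fit (bars), with the number of members tested in brackets. The medians of the paired fit stay between -0.05 and 0.08, and the circle and the triangle of a list often lie on different sides of 0.

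Cytosolic ribosomal proteins had the lowest median. Of 44 tested, 27 were lower in both pairs and 2 higher, beside 25.6% and 25.3% of all genes, and 8 were lower and 0 higher at an unadjusted p under 0.05, beside 2.95% and 2.94% of all genes. The median was -0.05, with -0.08 in the pair of replicates 1 and -0.02 in that of replicates 2, and 0.00 in LPS_IFNg_TubB against TubB. Rpl5, a large-subunit protein that also binds Mdm2 (chromosome 5, 107900508 to 107909005), had 770 and 772 CPM in LPS_IFNg against 864 and 849 CPM in mock (-0.15 ± 0.04, adjusted p = 0.0696). Rpl28 had 491 and 467 CPM against 522 and 526 CPM (-0.13, adjusted p = 0.505). Neither gene overlapped between groups, beside 15.9% of all genes lower without overlap. All 44 were bounded within 1.5-fold, beside 75.4% of all genes, the widest being Rpl10a at 1.33-fold.

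Of 41 nuclear genes of the respiratory chain, 11 were lower and 8 higher in both pairs, beside 25.6% and 25.3% of all genes. At an unadjusted p under 0.05 there were 5 lower and 1 higher, beside 2.95% and 2.94% of all genes. Cox6b1, of complex IV, had 130 and 157 CPM in LPS_IFNg against 167 and 166 CPM in mock (-0.22, adjusted p = 0.353). Ndufa4, a cytochrome oxidase-associated subunit, had 115 and 116 CPM against 140 and 132 CPM (-0.24, adjusted p = 0.353). The median of the list was 0.00 and the widest bound 1.38-fold (Ndufa2). Mitochondrially encoded genes were not analysed here.

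In central carbon metabolism, a process that LPS is known to redirect towards glycolysis, the 24 glycolytic genes tested had a median of -0.01, with 7 lower and 5 higher in both pairs, beside 25.6% and 25.3% of all genes. At an unadjusted p under 0.05, 3 were lower and 0 higher, beside 2.95% and 2.94% of all genes. Ldha, lactate dehydrogenase A, had 1720 and 1900 CPM in LPS_IFNg against 1820 and 1990 CPM in mock (-0.08, interval -0.13 to -0.02, adjusted p = 0.754). The 24 citric acid cycle genes had a median of -0.02 and a widest bound of 1.23-fold (Idh3g). Slc2a1, the glucose transporter among the targets of hypoxia-inducible factors, had 309 and 348 CPM against 292 and 370 CPM (interval -0.10 to 0.08). In this transporter replicate 2 was above replicate 1 in both groups.

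Toll-like receptor and interferon signalling genes, the sensors and adaptors themselves, had 13 of 35 higher in both pairs and 5 lower, beside 25.3% and 25.6% of all genes, with a median of 0.03. Myd88, the adaptor, had 77.8 and 73.9 CPM in LPS_IFNg against 70.1 and 64.8 CPM in mock (0.17, interval -0.01 to 0.35). Tlr1, a receptor for bacterial lipopeptides, had 10.9 and 8.33 CPM against 4.96 and 7.93 CPM (0.58, interval 0.02 to 1.15, adjusted p = 0.806). Cd14, the LPS co-receptor, had 1500 and 1590 CPM against 1560 and 1610 CPM (interval -0.09 to 0.03). The groups overlapped for Cd14 and not for Myd88 or Tlr1, beside 15.1% of all genes higher without overlap. For Tlr1 the log2 difference was 1.08 in the pair of replicates 1 and 0.07 in that of replicates 2.

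Immediate early and MAP kinase feedback genes had 13 of 27 lower in both pairs and 2 higher, beside 25.6% and 25.3% of all genes, with a median of -0.04 and -0.06 in each pair. Dusp5, a phosphatase of ERK, had 4.81 and 8.70 CPM in LPS_IFNg against 8.57 and 12.3 CPM in mock (-0.64, interval -1.19 to -0.10, adjusted p = 0.764). Its groups overlapped, and replicate 2 was higher than replicate 1 in both. Junb, an AP-1 subunit, had 172 and 160 CPM against 172 and 166 CPM (interval -0.15 to 0.09). The same list had a median of 0.02 in LPS_IFNg_TubB against TubB.

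Among type I interferon response genes, 26 of 39 were tested, 8 higher and 8 lower in both pairs, near the 25.3% and 25.6% of all genes. Herc6, the ISG15 ligase of mice, had 14.6 and 8.88 CPM in LPS_IFNg against 16.1 and 16.9 CPM in mock (-0.50, interval -0.92 to -0.09, adjusted p = 0.764), and Usp18, the protease that removes ISG15, had 10.9 and 8.70 CPM against 7.22 and 6.53 CPM (0.50, interval -0.04 to 1.05). These 2 genes of the same response lay on opposite sides. The log2 difference of Herc6 was -0.14 in the pair of replicates 1 and -0.9 in that of replicates 2. Bst2, tetherin, had 83.0 and 82.8 CPM against 82.7 and 83.3 CPM (interval -0.17 to 0.17).

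Class I antigen presentation had the highest median, 0.08 over 10 members tested, while its medians in single pairs were -0.04 and 0.05. Calr, the chaperone calreticulin, had 2270 and 2110 CPM in LPS_IFNg against 2100 and 2010 CPM in mock (0.09, interval 0.03 to 0.15, adjusted p = 0.577). B2m, the light chain of class I molecules, had 316 and 334 CPM against 334 and 351 CPM (interval -0.17 to 0.02). Of the 18 members, 7 were at 0 in all 4 libraries. Where a symbol has a numbered copy in the annotation, a 0 does not give its level.

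The phagocyte NADPH oxidase makes the oxidative burst. Its subunits and antioxidant enzymes formed a list of 17 genes, all bounded within 1.16-fold, with 6 higher and 5 lower in both pairs, beside 25.3% and 25.6% of all genes, and a median of 0.00. Cybb, gp91phox, had 420 and 403 CPM in LPS_IFNg against 391 and 367 CPM in mock (0.12, interval 0.03 to 0.21, adjusted p = 0.706), and Cyba, p22phox, 375 and 397 CPM against 357 and 365 CPM (0.10, interval 0.01 to 0.19). Both were higher in both pairs without overlap, as were 15.1% of all genes. Lysosomal genes had 15 of 33 higher in both pairs and 6 lower, beside 25.3% and 25.6% of all genes, at a median of 0.03, and Ctsd, cathepsin D, had 6290 and 6610 CPM against 6230 and 6510 CPM.

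Most proliferation and stress lists were closely bounded. All 29 mitosis genes, 34 DNA replication genes, 26 ribosome biogenesis genes and 23 genes of the unfolded protein response were within 1.5-fold. Of all genes tested, 75.4% were. Mki67, a marker of cycling cells, had 804 and 659 CPM in LPS_IFNg against 748 and 624 CPM in mock, and Pcna, the replication clamp, 319 and 317 CPM against 346 and 339 CPM (intervals 0.02 to 0.17 and -0.20 to -0.01). The p53 targets, with 14 of 21 within 1.5-fold and a widest bound of 2.21-fold, and the ATF4 targets, with 22 of 25 and a widest bound of 3.24-fold (Pycr1), were less so. Asns, asparagine synthetase, a target of ATF4, had 111 and 120 CPM against 125 and 138 CPM (-0.19, adjusted p = 0.706). Replicate 1 was above replicate 2 in both groups for Mki67.

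Genes with few counts stayed loosely bounded. Of 14 circadian clock genes tested, 6 were higher and 4 lower in both pairs, beside 25.3% and 25.6% of all genes. At an unadjusted p under 0.05, 3 were higher and 0 lower, beside 2.94% and 2.95% of all genes. Per2, a repressor of the clock, had 3.20 and 5.44 CPM in LPS_IFNg against 1.65 and 2.49 CPM in mock (1.05, interval 0.10 to 2.01, adjusted p = 0.785), and Nr1d2, a nuclear receptor of the clock, 21.5 and 17.4 CPM against 13.7 and 14.5 CPM (0.47, interval 0.09 to 0.85). Clock, with more counts, had 66.8 and 55.3 CPM against 55.2 and 47.6 CPM (0.25, interval 0.04 to 0.45, adjusted p = 0.764). The median of the list was -0.01 in the pair of replicates 1 and 0.09 in that of replicates 2. Wipi1, an autophagy protein, had 4.98 and 4.17 CPM against 1.65 and 2.80 CPM (1.05, adjusted p = 0.766), with a bound of 3.92-fold. For Per2 and Wipi1 both libraries labelled LPS_IFNg were above both labelled mock, as in 15.1% of all genes. The interval of Per2 held changes of up to 4.02-fold. Of the 14 clock genes, 8 were within 1.5-fold, and of the 22 autophagy genes tested 20, beside 75.4% of all genes.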

How the data were processed

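Polyadenylated RNA was sequenced with a kit that does not keep strand, per the labels' protocols, so overlapping antisense genes cannot be told apart. The aligner was STAR 2.7.0, per the submitters' processing notes. The authors deposited raw counts per gene, made with featureCounts 2.0.1 and a RefSeq annotation of GRCm38.p6, per the file headers, and a table of regularised log2 values (rlog), which served as an alternative. Of 42454 rows, 17177 had a count in the 4 libraries compared. In the annotation 1740 symbols have a numbered copy, and 1239 of these were at 0.

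The counts of these 4 libraries alone were fitted with edgeR 4.0.16 in R 4.3.3 (TMM, filterByExpr with a minimum count of 10 and total of 15, robust quasi-likelihood, group and replicate number as terms), with Benjamini-Hochberg adjustment over 10577 genes. One residual degree of freedom per gene was left before the spread was shared, and the shared spread had a biological coefficient of variation of 3.72%. Intervals are the coefficient with its standard error (SE) from that fit. Pair differences are log2 CPM with a prior count of 2. Printed CPM are counts per 1000000 counts of the library. The fit was tested on simulated counts.

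The block follows the replicate numbers in the labels, which nothing there says mark a shared culture. Alternatives were DESeq2 1.42.0, limma 3.58.1 with voom or rlog values, RLE factors, other filters, no block, all 8 libraries and leaving out each library. Named genes were the consistent shifts with at least 5 log2 CPM of smallest p, up to 10 a direction, the stimulus markers, and up to 3 members of smallest p and 2 of highest level in each list, of which some are given. The comparison and the 39 lists were chosen with earlier results of these data known. Irf1 has no promoter shown, because its annotated start differs between tables. Floors of 3 counts cover counting error only. Some results are not reported here.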

Additional observations from a re-analysis of the deposited data

How the results depend on the processing

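The count of genes called by edgeR stayed at 0 under every edgeR setting, DESeq2 and limma on rlog values. With limma-voom 1 gene, Plau, was called lower. Genes bounded within 2-fold, 9393 as reported, numbered 8223 with DESeq2 and 10577 on the rlog scale, which shrinks low genes, and those within 1.5-fold, 7976 as reported, 5622 and 10551. Without the replicate block, in place of the pairing, they were 9301 and 7778. As a check of that pairing, deviations of same-numbered libraries from their group means correlated across genes with r = 0.0958, and 0.242 in genes of at least 5 log2 CPM. Leaving out each library in turn, in a fit of all 8 with the block that takes the lone library to vary like the other groups, gave 8567 to 8610 and 6077 to 6229, with 0 called. The counts of consistent shifts depended on their definition. With a size of 1.1-fold there were 628 higher, 710 lower and 1330 of opposite signs, with 1.5-fold 43, 32 and 100, with no count filter 804, 1052 and 1858, and on the rlog scale 19, 13 and 42. Without the pairing (no replicate block), 429 genes were higher and 475 lower with no overlap of groups and means at least 1.2-fold apart. The largest list median, 0.0775 as reported, was between 0.0905 and 0.17 when 1 pair was left out. Shifts of the same sign in the other pair were 48.8% and 47.8% at 1.1-fold and 1.5-fold. Fold changes of named list members and markers were compared over all alternatives but DESeq2. They moved by more than the SD of their 2 pair differences in 441 cases and by less in the others. The bounds of these genes and of the 16 named shifts moved by more than that SD in 949 cases and not in 1175. The 16 named shifts kept their direction under the 12 alternatives computed for them, which leave out DESeq2. They were chosen for the same sign in both pairs of these libraries, so this was nearly set by the choice and is no support. Depth limits what can be said of genes under 3 log2 CPM.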
